A study of Mus musculus with 6 samples.

Results

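The mitochondrial genome genes described here are the 37 genes whose mouse GENCODE symbol starts with mt-, of 53947 genes listed for each library. They were chosen by symbol alone and comprise 13 protein coding genes, 2 ribosomal RNA (rRNA) genes and 22 transfer RNA (tRNA) genes, which together make up the gene content of chromosome M (16299 bases in the GRCm39 build). Gene expression was measured by total RNA-seq in quadriceps, a thigh muscle, of wild-type (WT) mice and of HSALR mice (written HSA-LR in the study), with 3 samples per group, all aged 12 weeks. HSALR mice carry a transgene of human skeletal actin (HSA) with a CTG repeat expansion of about 220 repeats, expressed from the skeletal actin promoter and therefore in skeletal muscle fibres, and are used as a mouse model of myotonic dystrophy type 1 (DM1), in which the expanded RNA binds the MBNL splicing factors. WT mice carry no transgene, and strain and sex are not given in the labels. The labels number the samples within each group but do not say whether they are different animals, and the p-values below therefore describe sample to sample spread.

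Mitochondrial DNA is a small circular genome, present in many copies per cell, that encodes a few core subunits of the respiratory chain and the rRNA and tRNA needed to translate them. Both strands are transcribed as long polycistronic RNAs, which are cut at the tRNAs that punctuate the mRNAs, and the mRNAs are then polyadenylated and stabilised or degraded one by one. All other subunits, and every factor that copies, transcribes, processes and translates the mitochondrial genome, are encoded in the nucleus. In muscle, mitochondrial mRNA is among the most abundant mRNA of the cell.

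The mitochondrial genes lie end to end, and a few share bases. mt-Atp8 and mt-Atp6, the subunits of ATP synthase (complex V), overlap by 43 bases on the same strand, and mt-Nd4l and mt-Nd4, membrane subunits of NADH dehydrogenase (complex I), by 7 bases. These stretches are shown because a read that lies inside one cannot be given to a single gene, and the capitals mark the shared bases (GRCm39, plus strand).
mt-Atp8 and mt-Atp6, chrM:7907-7989: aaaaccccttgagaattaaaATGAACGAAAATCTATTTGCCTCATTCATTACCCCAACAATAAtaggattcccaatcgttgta
mt-Nd4l and mt-Nd4, chrM:10147-10193: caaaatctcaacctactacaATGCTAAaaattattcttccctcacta
mt-Nd6, another complex I subunit, is the only protein coding gene on the minus strand and shares 14 bases with the end of mt-Nd5 on the opposite strand. The library kit keeps strand, but the sources used here do not give whether the counting used it, so reads of mt-Nd6 and of its antisense RNA cannot be told apart with certainty.

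A stretch of the mouse nuclear genome repeats the middle of the mitochondrial genome almost base for base. chrM:6390-11042 (4653 bases) aligned to the minus strand of chr1:24650616-24655269 (4654 bases) at 99.936% identity, with 2 mismatches and, in the tRNA gene mt-Tr, 1 gap over 4654 aligned positions. It runs from the last part of mt-Co1 to the first part of mt-Nd4 and carries 7 pseudogenes that are listed in the files beside the mitochondrial genes. Counting the chrM base first, with chrM positions, the mismatches are A6393T in mt-Co1 and T9461C in mt-Nd3. They are shown because they are the only bases inside the coding genes of the insertion by which the nuclear copy and the mitochondrial gene differ, and the capital marks that base (chromosome 1 read on its minus strand).
mt-Co1, chrM:6378-6407: ggtggtctaaccggaAttgttttatccaac
Gm29216, chr1:24655252-24655281: catggattggcaggaTttgttttatccaac
mt-Nd3, chrM:9446-9475: ccagaagagagtaatTaacctgtacactgt
Gm28438, chr1:24652184-24652213: ccagaagagagtaatCaacctgtacactgt
The first pair also differs further to the left, outside the aligned stretch. The mt-Nd3 window starts before the gene, in the tRNA gene mt-Tg, which ends at chrM:9458. The windows of Gm29216 and Gm28438 likewise run past the annotated ends of those pseudogenes.

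The pseudogenes are annotated a little shorter than their mitochondrial counterparts. Gm28661 is identical to mt-Co2 over 681 of its 684 bases, Gm28437 to mt-Co3 over 783 of 784, Atp6-ps to mt-Atp6 over 678 of 681 and Gm10222 to mt-Nd4l over 294 of 297. Gm28438 matches mt-Nd3 over 345 of 348 bases with the 1 mismatch above, and Gm29216 matches the last 483 of the 1545 bases of mt-Co1. The ends of the mitochondrial mRNAs are shown because, for the identical copies, the bases in capitals lie past the annotated end of the copy.
mt-Co2, chrM:7667-7696: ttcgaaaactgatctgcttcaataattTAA
mt-Co3, chrM:9361-9390: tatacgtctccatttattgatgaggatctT
mt-Atp6, chrM:8578-8607: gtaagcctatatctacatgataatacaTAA
mt-Nd4l, chrM:10144-10173: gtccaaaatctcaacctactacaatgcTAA
The bases past that end are the stop codon in mt-Co2, mt-Atp6 and mt-Nd4l, and in mt-Co3 the single T from which polyadenylation completes a stop codon. The insertion on chromosome 1 does carry these bases, since its alignment spans them without a difference. A copy of mt-Co1 on chromosome 2, Gm13340, matched at 97.605% identity.

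The libraries held between 11468959 and 15023710 counts. 7SL and 7SK RNA, abundant non-coding RNAs of the nucleus and cytosol, took 14.2%, 14.1% and 15.5% of them in WT 1 to 3 and 43.9%, 18.8% and 24.0% in HSALR 1 to 3, so values are given as CPM (counts per library size, brought to the same scale in all libraries) on library sizes scaled by TMM (trimmed mean of M-values), which assumes that most genes do not change. Without 7SL, 7SK and mitochondrial counts in the library sizes and without TMM, the median log2 fold change of all genes was 0.40 in place of 0.04, and 2314 genes were called higher and 396 lower in place of 581 and 1016. The transgene's actin reads were visible under Actg-ps1, an actin pseudogene with 0 counts in each WT library and 1392, 3940 and 5154 in HSALR. Summed CPM of 8 fast muscle fibre markers was lower in HSALR (66984 to 120240, against 125011 to 141283 in WT), and that of 8 slow and oxidative fibre markers overlapped between the groups. The sum of 5 cardiac markers overlapped as well (1.84 to 40.5 CPM in WT and 4.70 to 23.7 in HSALR), with Myl7 among them at 0. Leukocyte markers (26.5 to 62.8 against 13.1 to 15.5 CPM) and fibroblast markers (1549 to 4788 against 1220.0 to 1355 CPM) were higher in each HSALR library, with 4 of 4 and 1 of 5 tested markers called, and their part in the values below was not tested. Fewer mitochondria, fewer muscle fibres and less RNA in each of them cannot be told apart in bulk tissue.

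The rRNA and tRNA genes gave almost no counts. The 12S rRNA gene mt-Rnr1 (955 bases) had 0, 1 and 1 counts in WT and 0 in each HSALR library, where 3 counts, the limit that a count of 0 allows, correspond to 0.262, 0.255 and 0.227 CPM. The 16S rRNA gene mt-Rnr2 (1582 bases) had 3, 1 and 4 counts in WT and 1, 10 and 3 in HSALR. These libraries were made with a kit designed to remove cytosolic and mitochondrial rRNA, so the counts give no measure of rRNA in the tissue.

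All 22 tRNA genes, 14 on the plus strand and 8 on the minus strand, were at 0 counts in all 6 libraries. They are 59 to 75 bases long, while the length lost to fragment size, the gene length minus the effective length of long genes, was 156.02 to 164.47 bases. Each tRNA gene therefore had an effective length of 0, at which no count can be given. The shortest and the longest are shown to make the size plain, in lower case throughout.
mt-Ts2 (serine tRNA), chrM:11613-11671: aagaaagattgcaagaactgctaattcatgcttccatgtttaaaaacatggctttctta
mt-Tl1 (leucine tRNA), chrM:2676-2750: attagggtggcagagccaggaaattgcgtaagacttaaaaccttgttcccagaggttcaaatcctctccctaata
mt-Atp8, the shortest coding gene at 204 bases, was left with an effective length of about 50 bases, the least being 49.32.

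The 13 coding genes took 2.64%, 2.73% and 2.57% of the counts in WT and 1.66%, 2.42% and 1.58% in HSALR, with exact (Clopper-Pearson) 95% intervals of which the widest was that of HSALR 2, 2.410% to 2.428%, and which cover counting error only. The groups did not overlap (2.65% ± 0.0822 against 1.88% ± 0.464, SD, n = 3 each), with an exact two-sided permutation p of 0.1, the smallest that 3 against 3 samples allow. With the counts listed under the nuclear copies added, the share was 4.59%, 4.64% and 4.42% in WT and 3.46%, 4.59% and 3.16% in HSALR. The groups then overlapped (4.55% ± 0.115 against 3.74% ± 0.753, exact permutation p = 0.3). With the copies added and 7SL and 7SK left out of the total, the means were 5.33% ± 0.0875 and 5.33% ± 1.05, with HSALR 1 highest of all libraries at 6.18% and HSALR 3 lowest at 4.16% (exact permutation p = 1).

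More than 2 in 5 of the counts with mitochondrial sequence stood under the nuclear copies. The copies held 42.5%, 41.1% and 41.9% of the joint count of the 13 genes and their copies in WT and 52.2%, 47.3% and 50.1% in HSALR. Every HSALR library was above every WT library (exact permutation p = 0.1). Nearly all of the joint count stood under the copy for mt-Co2 (96.6% to 99.7% over the 6 libraries) and mt-Co3 (99.1% to 99.999%), subunits of cytochrome c oxidase (complex IV). For mt-Co1, the catalytic subunit of the same complex, 12.9% to 21.6% stood under the copies. Nearly all of this was under Gm29216, which matches only the last part of mt-Co1. Gm13340, which matches its whole length, held 27.82 counts over the 6 libraries. The split moved widely between libraries for mt-Atp6 (61.0% to 90.1%) and for mt-Nd3, a complex I subunit (56.3% to 78.6%). mt-Nd4l had its whole count under Gm10222 in 5 libraries and under its own name in WT 3.

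**Figure D1:**
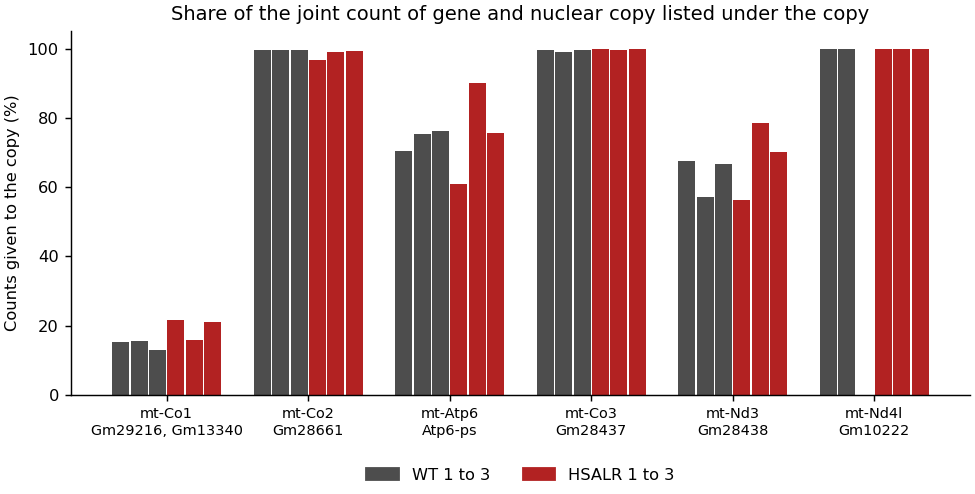
Percent of the joint count of each mitochondrial gene and its nuclear copy that is listed under the copy (vertical axis), 1 bar per library, WT 1 to 3 in grey and HSALR 1 to 3 in red. The bars of mt-Co2 and mt-Co3 are all above 96%, those of mt-Co1 all below 22%, and the missing bar of mt-Nd4l is WT 3 at 0%.

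The fractional part of the counts followed the same genes, apart from mt-Nd4l. RSEM divides a read that matches several genes between them, so a count that is not whole marks shared reads. A whole count does not mark their absence, since mt-Nd4l was whole in each library while its joint count stood under either name. Of the 13 coding genes, 8 had whole counts in all 6 libraries and 5 did not, namely mt-Co1, mt-Co2, mt-Co3, mt-Atp6 and mt-Nd3. mt-Co1, for example, was listed at 345524.45 counts in WT 2 and its joint count with the copies was 409018. With the copies added, all 13 genes were whole within 0.005 in all 6 libraries. Gm28439, identical to mt-Nd4 over 876 bases, was at 0 counts in every library, and mt-Nd4 was whole, although reads inside those bases match both. The deposited values of the 6 genes with a counted copy were therefore read together with their joint counts, since reads identical to both places cannot be told apart.

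The choice decided the value of mt-Co2 and mt-Co3. As deposited, mt-Co2 was at 24.3, 22.8 and 12.8 CPM in WT and 131, 41.1 and 23.0 CPM in HSALR, and mt-Co3 at 43.9, 80.7 and 46.0 CPM in WT and 0.0951, 49.4 and 0.134 CPM in HSALR. Their joint counts were on another scale, with mt-Co2 at 4865, 4447 and 4663 CPM in WT and 3861, 3769 and 2755 in HSALR, and mt-Co3 at 10599, 9444 and 10346 CPM in WT and 10758, 11847 and 7244 in HSALR. The gap between HSALR 1 and HSALR 2 in deposited mt-Co3 was not seen in its joint count.

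Levels per unit of length (TPM, transcript abundance corrected for length) were taken in WT from the joint counts over the effective length of the mitochondrial gene. mt-Co1 stood first with a level of 11650.0 ± 879.8 TPM (SD, n = 3), followed by mt-Co3 (9802 ± 380.0 TPM) and mt-Co2 (5377 ± 240.1 TPM), without overlap between neighbours. The lowest mt-Co1 level, 10684 TPM, lay close above the highest mt-Co3 level, 10237 TPM, and as deposited mt-Co1 had 9952 ± 593 TPM. mt-Nd3 (1372 ± 102 TPM) and mt-Atp6 (1235 ± 59.7 TPM) came next, with TPM values of 1485, 1344 and 1286 for mt-Nd3 and 1269.1, 1269.3 and 1166 for mt-Atp6, so that those neighbours came close without overlapping. Then followed mt-Nd1 (839 ± 72.6 TPM) and mt-Cytb (709 ± 9.07 TPM), the only mitochondrially encoded subunit of complex III, mt-Nd4 (415 ± 29.0 TPM), mt-Atp8 (263 ± 35.1 TPM), mt-Nd5 (216 ± 9.15 TPM) and mt-Nd2 (149.7 ± 11.6 TPM). mt-Nd4l (21.6 ± 4.97 TPM) and the minus strand gene mt-Nd6 (14.3 ± 2.12 TPM) were lowest, with 16.8 to 26.7 TPM and 12.2 to 16.4 TPM in the 3 WT libraries, neighbours that come close without overlapping. The order of mt-Atp8 rests on an effective length of about 50 bases.

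**Figure D2:**
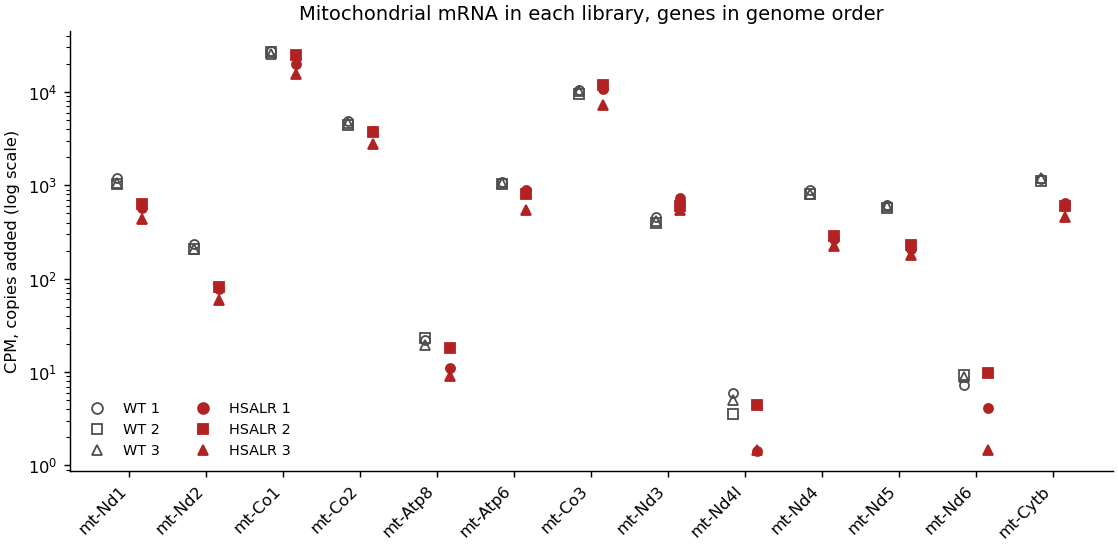
Level of each of the 13 mitochondrial mRNAs in CPM with the counts of nuclear copies added (log axis), genes in genome order from left to right, open grey symbols for WT and filled red symbols for HSALR, circles, squares and triangles for replicates 1 to 3. HSALR lies below WT without overlap for 9 genes and above WT for mt-Nd3, and overlaps WT for mt-Co3, mt-Nd4l and mt-Nd6.

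HSALR muscle had less mRNA of 5 of the mitochondrial genes. Of the 37 genes, 12 passed the filter on low counts, namely the coding genes without mt-Nd4l. By edgeR's quasi-likelihood test with adjustment over 13576 genes (called below an adjusted p of 0.05), 5 were lower and none higher in HSALR, against 7.48% of all genes called lower and 4.28% called higher. The 5 were mt-Nd1, mt-Nd2, mt-Nd4 and mt-Nd5 of complex I and mt-Cytb of complex III. At an unadjusted p below 0.05, edgeR gave 6 lower and none higher, while DESeq2 and limma-voom each gave 7 lower and 1 higher unadjusted and 6 lower and none higher adjusted. No share of all genes at an unadjusted p is given here. DESeq2 called 9.31% of all genes lower and 8.57% higher, and limma-voom called 987 of the 13576 genes lower and 443 higher. In CPM, 7 of the 12 had every HSALR library below every WT library, against 20.0% of all genes, and with copies added this held for 9 of 13, with mt-Nd3 on the other side, where 17.8% of all genes stood.

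Among the complex I subunits, mt-Nd4 fell most. Its CPM was 889, 816 and 813 in WT and 266, 288 and 223 in HSALR. The groups were far apart, at -1.70 ± 0.16 on the log2 scale (SE, edgeR adjusted p = 0.00239). mt-Nd2 was at 234, 209.6 and 209.8 CPM in WT and 78.3, 80.8 and 59.5 in HSALR, which is -1.58 ± 0.16 on the log2 scale (edgeR adjusted p = 0.00278). mt-Nd5 was at 616, 576 and 596 CPM in WT and 209, 232 and 178 in HSALR, which is -1.53 ± 0.16 on the log2 scale (edgeR adjusted p = 0.00283). All 3 encode proton-pumping membrane subunits, and were 3.24, 2.99 and 2.89 times higher in WT, in the order given, by the fitted fold.

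mt-Nd1, the subunit at the ubiquinone binding site, fell less. Its CPM was 1209.6, 1047 and 1066 in WT and 578, 639 and 442 in HSALR, which do not overlap (log2 fold change -1.002 ± 0.185, edgeR adjusted p = 0.0143). mt-Cytb was at 1156, 1115 and 1204 CPM in WT and 646, 599.7 and 459.7 in HSALR (log2 fold change -1.03 ± 0.18, edgeR adjusted p = 0.0116). These are falls to about 0.499 and 0.491 of WT, smaller than those of mt-Nd4, mt-Nd2 and mt-Nd5, a difference between genes that was not tested as such.

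mt-Nd3 stood on the other side of WT. Its joint CPM was 458, 392 and 416 in WT and 728, 608 and 543 in HSALR, with no overlap. The log2 fold change of 0.57 ± 0.17 missed the threshold in edgeR (adjusted p = 0.0564 over 13571 genes, of which 4.35% were called higher and 7.53% lower) and passed it in DESeq2, and it turned to -0.03 with the trend on transcript length removed. As deposited, mt-Nd3 had 149, 168 and 138 CPM in WT and 318, 129.9 and 163 in HSALR, which overlap (log2 fold change 0.42 ± 0.31, edgeR adjusted p = 0.38). Its copy Gm28438, the one with T9461C, was called higher on its own (log2 fold change 0.65 ± 0.17, edgeR adjusted p = 0.0443).

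The remaining complex I genes had few counts. mt-Nd6 had 7.21, 9.21 and 8.92 CPM in WT and 4.09, 9.84 and 1.48 in HSALR, where HSALR 2 was above all WT libraries (log2 fold change -0.73 ± 0.57, edgeR adjusted p = 0.418). mt-Nd4l, with 15 to 85 joint counts per library, had 6.01, 3.58 and 4.98 CPM in WT and 1.43, 4.44 and 1.48 in HSALR (log2 fold change -0.98 ± 0.45, edgeR adjusted p = 0.168). Neither was called by edgeR over all 6 libraries, but without HSALR 2 and with joint counts both were called lower, mt-Nd6 at -1.65 (edgeR adjusted p = 0.0248) and mt-Nd4l at -1.74 (edgeR adjusted p = 0.0122).

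The complex IV genes did not pass the edgeR test over all 6 libraries. mt-Co1 had joint CPM of 27343, 27092 and 25803 in WT and 19754, 24662 and 15610 in HSALR. HSALR 2 lay close under WT and HSALR 3 far below it, so that the log2 fold change of -0.42 ± 0.25 was not called (edgeR adjusted p = 0.27). As deposited the value for mt-Co1 was -0.50 ± 0.25 (edgeR adjusted p = 0.209). Joint mt-Co2 was lower in each HSALR library and not called (log2 fold change -0.43 ± 0.20, edgeR adjusted p = 0.178), while its deposited value had the opposite sign (1.70 ± 0.72, edgeR adjusted p = 0.179). Joint mt-Co3 overlapped between the groups (log2 fold change -0.03 ± 0.24, edgeR adjusted p = 0.951), and its deposited value was -1.78 ± 1.87 (edgeR adjusted p = 0.561). Deposited mt-Co3 was called by limma-voom (-5.71, limma adjusted p = 0.0481), by limma-trend (limma adjusted p = 0.0427) and without HSALR 2, deposited mt-Co1 without HSALR 2 (-0.72, edgeR adjusted p = 0.0339), and joint mt-Co2 without HSALR 1 (-0.51, edgeR adjusted p = 0.0497) or with the length trend removed.

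By joint counts, the ATP synthase genes were lower in each HSALR library without passing the edgeR test over all 6 libraries. mt-Atp8 had 22.1, 23.2 and 19.7 CPM in WT and 10.9, 18.1 and 9.0 in HSALR (log2 fold change -0.77 ± 0.24, edgeR adjusted p = 0.0662). mt-Atp6, which forms the proton channel of the enzyme, had joint CPM of 1096, 1038 and 1055 in WT and 899, 815 and 547 in HSALR (log2 fold change -0.50 ± 0.20, edgeR adjusted p = 0.131). As deposited, mt-Atp6 ran from 80.9 to 351 CPM in HSALR, with HSALR 1 above all WT libraries (251 to 324 CPM) and the other two below. mt-Atp8 was called by DESeq2 (DESeq2 adjusted p = 0.0342), with the length trend removed, with a replicate block and without HSALR 2, and deposited mt-Atp6 with the 7SL and 7SK share as covariate (-1.96, edgeR adjusted p = 0.000911) and without HSALR 1 (-1.36, edgeR adjusted p = 0.0087).

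**Figure D3:**
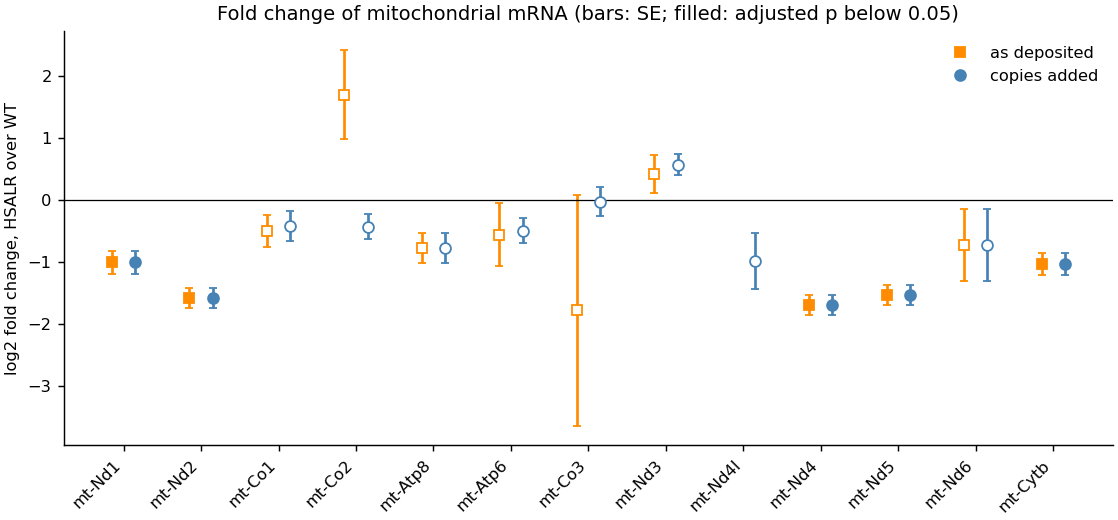
Log2 fold change of each mitochondrial mRNA (HSALR over WT, edgeR, bars are SE), orange squares from the deposited counts and blue circles with the counts of nuclear copies added, filled where the adjusted p is below 0.05. The filled symbols are mt-Nd1, mt-Nd2, mt-Nd4, mt-Nd5 and mt-Cytb in both, and mt-Co2 and mt-Co3 move most between the 2 ways of counting.

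With the copies added, all 13 coding genes could be tested, and the called genes were the same 5. The median log2 fold change of the 13 was -0.77, with 12 of 13 below 0, beside 0.04 over all genes tested. The 6 genes with a counted copy held none of the calls and the 7 without one held all 5, and the part of the copies in this was not tested. With library sizes that leave out 7SL, 7SK and the mitochondrial genes, the same 5 were called with mt-Nd4 at -1.33, and the median of the 12 tested members was -0.54 against 0.40 over all genes. The 3964 nuclear coding genes of 204 to 1824 bases had a median log2 fold change of 0.20, with the 5th and 95th percentiles at -0.50 and 1.26. Among nuclear coding genes the median declined with length. It was 0.31 at 180 to 1182 bases, 0.13 at 1183 to 1600 bases and 0.06 at 1600 to 1991 bases.

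mt-Nd2, mt-Nd4 and mt-Nd5 kept the call in all 32 alternatives tried, with log2 fold changes from -2.27 to -0.93. mt-Nd1 and mt-Cytb lost it in 10 of 32, among them the fits without any 1 of the WT libraries or without HSALR 3, each of which called 3 mitochondrial genes. mt-Nd1, mt-Nd2, mt-Nd4, mt-Nd5 and mt-Cytb have no counted copy. For them, most alternatives with joint counts nearly repeated the matching deposited fit (mt-Nd2 at -1.58 in both). The 32 alternatives are therefore not 32 separate checks. Without HSALR 2 there were 9 lower, in a fit that called 13% of all genes lower (8 lower and 1 higher with copies added), and without HSALR 1 there were 6 (7 lower and 1 higher with copies added). The 1 higher was mt-Nd3 in both. HSALR 3 was the lowest of the HSALR libraries in 12 of the 13 genes and HSALR 2 the highest in 9, by joint CPM. HSALR 1, the library with the most 7SL and 7SK RNA, was the lowest in 1.

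Shares within the joint mitochondrial counts do not depend on library size, though they include whatever the nuclear copies contribute, and here the balance between genes differed. With copies added, mt-Co3 took 21.9%, 20.4% and 22.4% of the counts of the 13 genes in WT and 28.5%, 27.2% and 25.8% in HSALR, and mt-Nd3 took 0.945%, 0.848% and 0.90% in WT and 1.93%, 1.39% and 1.93% in HSALR. Both were higher in every HSALR library. mt-Nd4 took 1.83%, 1.77% and 1.76% in WT and 0.703%, 0.66% and 0.795% in HSALR, and mt-Nd1, mt-Nd2, mt-Nd5, mt-Cytb and mt-Atp8 were likewise lower in every HSALR library. Each of these 8 had an exact two-sided permutation p of 0.1, the smallest possible, and an adjusted p of 0.163 over the 13 genes, so none can pass in this design. mt-Co1 (56.9% ± 1.48 against 54.8% ± 2.27) and mt-Co2 (9.91% ± 0.256 against 9.56% ± 0.813) overlapped.

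By complex, joint counts of the 7 complex I genes per 100 joint counts of the 3 complex IV genes were 7.99, 7.45 and 7.63 in WT and 5.42, 4.62 and 5.66 in HSALR. The groups were apart by more than the range of either. mt-Cytb took 2.47% ± 0.12 of the mitochondrial mRNA in WT and 1.57% ± 0.175 in HSALR (SD, n = 3), and the share of both ATP synthase genes overlapped. In deposited counts, 7 genes in place of 8 were without overlap, with mt-Co1 and mt-Co2 as the higher ones, and the deposited TPM gave a complex I to complex IV ratio that overlapped between the groups.

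**Figure D4:**
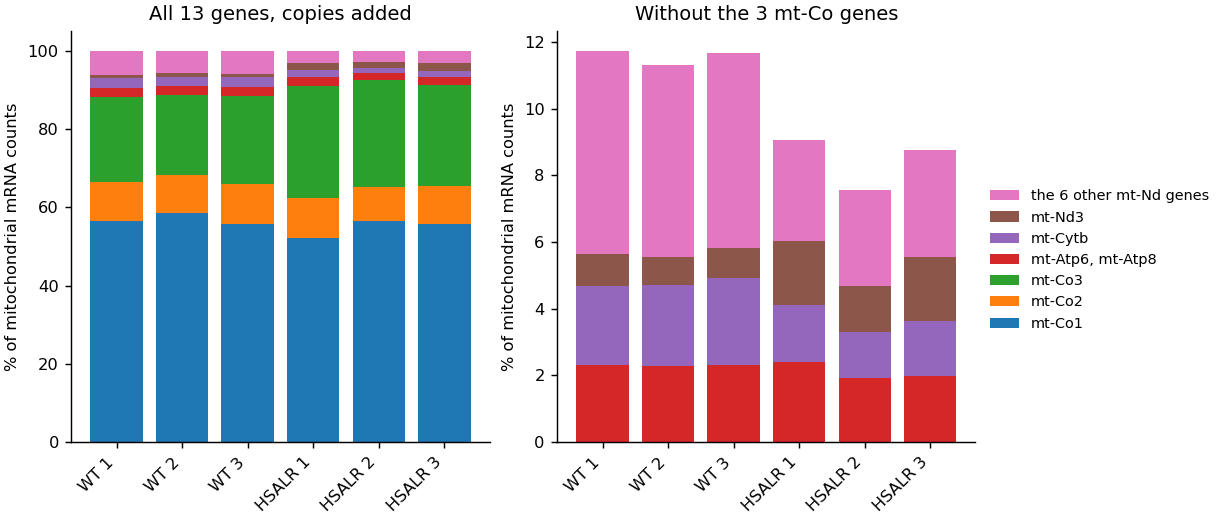
Composition of the mitochondrial mRNA in each library, as percent of the joint counts of the 13 genes (vertical axis), all genes on the left and the same bars without mt-Co1, mt-Co2 and mt-Co3 on an enlarged axis on the right. The part of mt-Co3 is between 20.4% and 22.4% in WT and 25.8% and 28.5% in HSALR, and the summed part of the 6 other mt-Nd genes, and that of mt-Cytb, is smaller in each HSALR bar.

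Few nuclear genes that act on mitochondrial DNA and RNA passed the test. Over 5 lists (replication and transcription, RNA processing and turnover, RNA modification, translation factors and aminoacyl-tRNA synthetases), 90 genes were tested, 6 were lower and 1 higher, and their median log2 fold change was -0.12, which became 0.23, with 6 higher and none lower, under library sizes without 7SL, 7SK and mitochondrial genes (17.0% and 2.92% of all genes). The share called lower was near that of all genes (7.48%). At an unadjusted p below 0.05, 18 were lower and 2 higher, again without a share of all genes at that threshold.

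Among the factors of replication and transcription, 2 of 15 tested were lower. Tfb2m, the initiation factor that opens the mitochondrial promoters, was at 34.7, 30.2 and 35.5 CPM in WT and 19.1, 24.4 and 19.8 in HSALR (log2 fold change -0.66 ± 0.14, edgeR adjusted p = 0.0238). Twnk, the helicase of the mitochondrial replication fork, fell less (-0.53 ± 0.15 on the log2 scale, edgeR adjusted p = 0.0493). Among 21 genes of RNA processing and turnover, 1 rose and 1 fell. Slirp, which with Lrpprc stabilises mitochondrial mRNA, was at 28.0, 25.0 and 31.2 CPM in WT and 55.0, 41.8 and 40.2 in HSALR (log2 fold change 0.70 ± 0.16, edgeR adjusted p = 0.0279). Slirp was at 0.23 once the length trend was removed (edgeR adjusted p = 0.32), and the call was also lost with the effective length offset, the 7SL and 7SK covariate or the replicate block. Grsf1, a protein of the mitochondrial RNA granules that binds G-rich RNA, fell, by a log2 fold change at -0.57 ± 0.16 (edgeR adjusted p = 0.0469). Of 21 alternatives, Tfb2m kept its call in 11, Twnk in 6, Slirp in 12 and Grsf1 in 9.

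In the translation lists, Taco1, the activator of mt-Co1 translation, fell (log2 fold change -0.71 ± 0.16, edgeR adjusted p = 0.0267), as did Gfm2, a factor of mitochondrial ribosome recycling (-0.64 ± 0.17, edgeR adjusted p = 0.0443), 2 of the 13 translation factors tested. Of 22 aminoacyl-tRNA synthetase genes only Gars1, the glycine enzyme of cytosol and mitochondria, was called, with 67.4, 59.4 and 60.4 CPM in WT and 34.4, 44.7 and 38.9 in HSALR (log2 fold change -0.66 ± 0.14, edgeR adjusted p = 0.0211). Taco1 kept its call in 13 of 21 alternatives, Gfm2 in 9 and Gars1 in 12. None of 19 RNA modification genes was called by edgeR, DESeq2 or limma-voom, with 1 higher and 3 lower at an unadjusted edgeR p below 0.05. The lowest p there belonged to Nsun3, the methyltransferase of the mitochondrial methionine tRNA (-0.77 ± 0.25, edgeR adjusted p = 0.071), and Rpusd3, a pseudouridine synthase (0.57 ± 0.24, edgeR adjusted p = 0.132).

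Of 11 nuclear regulators of mitochondrial biogenesis, Ppargc1a alone was called by edgeR over all 6 libraries, and DESeq2 called Esrrg beside it (-1.15, DESeq2 adjusted p = 0.0385). Ppargc1a, a coactivator that drives the nuclear programme of mitochondrial genes, was at 44.1, 66.6 and 71.2 CPM in WT and 24.5, 25.4 and 18.3 in HSALR, without overlap (log2 fold change -1.42 ± 0.21, edgeR adjusted p = 0.00711). Without HSALR 3 it narrowly missed the threshold (-1.28, edgeR adjusted p = 0.0527). All 11 had log2 fold changes below 0 (-1.42 to -0.04, median -0.35), against 5 of 11 with library sizes without 7SL, 7SK and mitochondrial genes. Summed CPM of 6 markers of mitochondrial mass (Cs, Vdac1, Tomm20, Hspd1, Sdha and Cycs) was 2467 to 2475 in WT and 1729 to 2317 in HSALR, with none of the 6 called by edgeR (2 lower and 1 higher at an unadjusted p below 0.05), 2 by DESeq2 and 1 by limma-voom.

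The nuclear subunits of complexes I, III, IV and V that passed the test rose, while mt-Nd1, mt-Nd2, mt-Nd4, mt-Nd5 and mt-Cytb fell. Of 76 tested, 6 were higher and none lower, against 4.28% of all genes called higher, with a median of 0.28, and 56 were higher under library sizes without 7SL, 7SK and mitochondrial genes, where 17.0% of all genes were called higher. At an unadjusted p below 0.05, edgeR gave 31 higher and none lower. The share of all genes at that threshold is not given here, so this count cannot be set against it. After adjustment, DESeq2 called 24 higher (8.57% of all genes) and limma-voom 5 (443 of 13576 genes). For complex I, 2 of 37 were called, Ndufb3 (0.49 ± 0.13, edgeR adjusted p = 0.0447) and Ndufa2 (0.46 ± 0.13, edgeR adjusted p = 0.0485), both small accessory subunits. For complex IV, 2 of 14 were called. Cox7c was at 235, 230.1 and 237 CPM in WT and 409, 308 and 341 in HSALR (0.59 ± 0.15, edgeR adjusted p = 0.0403), and Cox8a had the larger fold (1.08 ± 0.29, edgeR adjusted p = 0.0489). For complex V, 2 of 16 were called, Atp5mg (0.58 ± 0.14, edgeR adjusted p = 0.0354) and Atp5me (0.84 ± 0.21, edgeR adjusted p = 0.0364), and for complex III none of 9 by edgeR, where Uqcrh (0.49 ± 0.14, edgeR adjusted p = 0.0588) and Uqcrb (0.40 ± 0.14, edgeR adjusted p = 0.094) came nearest. DESeq2 called these 2, and 4 of the 9 were higher at an unadjusted edgeR p below 0.05.

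These nuclear calls were less stable than those of the mitochondrial genes. With the trend on transcript length removed, none of the 76 subunits was called and their median was -0.16, while 6 of the 12 tested mitochondrial genes were called lower and none higher (5.84% and 2.4% of all genes). In the fits without any 1 WT library or without HSALR 3, none of the 76 was called either, and without HSALR 2 there were 30 higher, with 10.6% of all genes called higher and 13% lower. For the 5 lists of mitochondrial gene expression, the same fits called none, and 1 higher and 15 lower without HSALR 2, while removal of the length trend left 3 lower.

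**Figure D5:**
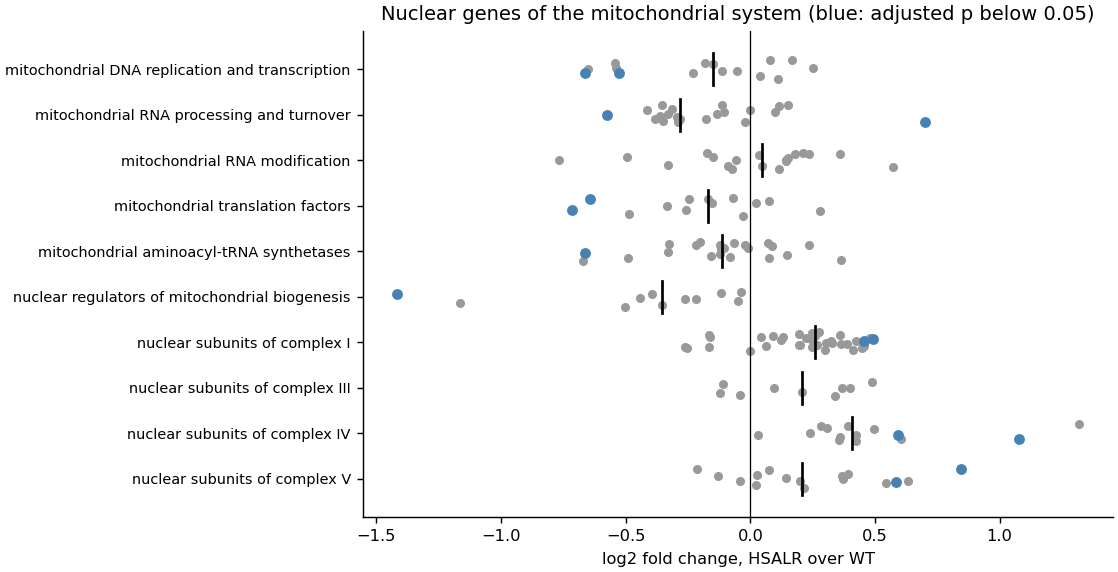
Log2 fold change (HSALR over WT, horizontal axis) of each tested nuclear gene in 10 lists, 1 point per gene, blue where the edgeR adjusted p is below 0.05, with the median of each list as a black bar. With TMM scaling, the lists of nuclear subunits of complexes I, III, IV and V have medians between 0.21 and 0.41, and the regulators have a median of -0.35 with Ppargc1a furthest left.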

How the data were processed

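Total RNA-seq of quadriceps was analysed in 3 WT and 3 HSALR samples, grouped by the genotype in their titles. RNA was extracted with TRIzol and stranded libraries were made after removal of rRNA, per the labels. The authors deposited expected counts, TPM, FPKM, length and effective length for 53947 genes per sample, made with Bowtie2 and RSEM 1.3.1 on GRCm39 according to the submitters' processing notes. The annotation release and strand setting are not given in the sources used here. RSEM estimated the expected count of each gene, which the authors deposited without rounding. The authors also deposited TPM, in which counts are divided by effective length and brought to the same total in each library. Their length columns served the checks on length, the FPKM column was left unused, and the study describes no test for these libraries.

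Symbols, positions and sequences came from GENCODE M39 and its GRCm39 genome, matched by gene identifier for 98.99% of genes. Transcripts of other genes were aligned to the mitochondrial genes with BLAST 2.17.0 (at least 90% identity over at least 100 bases). Of 19 such genes, 18 were listed and 7 had 10 counts or more, and those 7 were added to the gene they matched for the joint counts, while the others held 3 counts in all. Of the remaining steps, expected counts were rounded, filtered with filterByExpr, scaled by TMM and tested with edgeR 4.0.16 (robust quasi-likelihood F test, group as the only term, Benjamini-Hochberg adjustment over all genes tested). The SE of a log2 fold change was taken as its size over the square root of F. At these depths 3 counts correspond to 0.2 to 0.262 CPM. Shares were compared by exact two-sided permutation tests over samples. Joint TPM was the joint count over the effective length of the mitochondrial gene, on the scale of the library. Every pair of libraries within a group differed beyond sampling noise (least chi-square per degree of freedom 9.78).

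The genes, lists and tests were chosen with earlier results of these data known. All coding and rRNA genes were named, with up to 4 called genes of the lowest p per list, or 2 where none was called, and copies with at least 10 counts. Gm28439 was named beside this rule, after its values were seen. Atp5po, with more than 1 possible identifier, was left out. Alternatives were DESeq2 1.42.0, limma-voom and limma-trend on log2(TPM + 0.1) (limma 3.58.1), other size factors, filters, offsets, library sizes, a covariate, a replicate block and each library left out. Removal of each library's loess trend on transcript length and all fits that combine joint counts with another setting were added after seeing the data.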

Additional observations from a re-analysis of the deposited data

How the results depend on the processing

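The depth of 11468959 to 15023710 counts limits mt-Nd4l, mt-Nd6 and mt-Atp8, and 3 libraries per group limit every exact permutation p to 0.1 or more. The genes called over the whole table numbered 1597, and 2428 with DESeq2, 133 with limma-trend on log2(TPM + 0.1), 742 with the effective length offset, 935 with the 7SL and 7SK share as covariate, 2710 with library sizes without 7SL, 7SK and mitochondrial genes, 4780 with library sizes from the 13 coding genes, and 166 to 3294 with 1 library left out. The genes of the 10 nuclear lists called numbered 14, and in the same order 34, 1, 2, 3, 63, 82 and, with 1 library left out, 0 to 47, and 4 with the length trend removed.

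Mitochondrial genes called lower numbered 5, and 3 with library sizes from the 13 coding genes, deposited or joint, 8 with joint counts and the length trend removed, and 3 to 9 with 1 library left out. Those called higher numbered 0, and 1 (mt-Nd3) with library sizes from the 13 coding genes, deposited or joint, 1 with joint counts in DESeq2, and 0 to 1 with 1 library left out of joint counts. Among all 13576 genes, library sizes from the 13 coding genes gave 4688 higher and 92 lower. With joint counts they gave 2286 higher and 160 lower among 13571. DESeq2 with joint counts called 8.57% of all genes higher, and joint counts with the length trend removed called 795 genes lower. Deposited counts with 1 library left out gave 42 to 1479 genes higher and 124 to 1815 lower. With joint counts, mt-Co2 turned from 1.70 to -0.43 on the log2 scale, to -0.84 with the length trend removed (edgeR adjusted p = 0.0472), -0.053 with library sizes from the 13 coding genes, -0.53 with the 7SL and 7SK covariate and -0.42 in DESeq2, -0.39, -0.47 and -0.42 without WT 1, 2 or 3 and -0.51, -0.50 and -0.29 without HSALR 1, 2 or 3, against 0.69 to 2.10 in deposited counts with 1 library left out. Turned as well, with the sign opposite to that of the deposited counts and none called, were mt-Co3 (3.72 with the 7SL and 7SK covariate, 0.33 with joint counts and library sizes from the 13 coding genes, 0.014 and 0.15 with joint counts and without WT 1 or HSALR 3, -8.81 to -1.19 in deposited counts with 1 library left out), mt-Nd3 (-0.27 by limma-trend, -0.40 with the covariate, -0.25 with the length trend removed, -0.032 with that and joint counts, -0.043 to 0.65 in deposited counts with 1 library left out), and, with library sizes from the 13 coding genes, mt-Co1 (0.073), mt-Atp6 (0.095), Twnk (0.097) and Grsf1 (0.026). The lowest mt-Co3 value, without HSALR 2, was called (edgeR adjusted p = 0.00155), with both other HSALR libraries under 2 deposited counts. Among the nuclear subunits, limma-trend on TPM turned Ndufb3 (-0.077), Ndufa2 (-0.12), Uqcrh (-0.091) and Uqcrb (-0.18), and removal of the length trend Ndufa2 (-0.0046) and Uqcrb (-0.083). The cause of these turns was not tested, except that joint counts differ only by the counts of the copies.

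The difference in the share of counts on the 13 genes was -0.763 percentage points, -0.430 without 7SL and 7SK in the total, -0.404 as a share of protein coding counts (groups overlapping, exact permutation p = 0.2), 0.000787 with copies added and 7SL and 7SK left out of the total, and -1.03 to -0.61 with 1 library left out. In the composition of deposited counts, 7 genes did not overlap, and 7 to 11 with 1 library left out (11 without HSALR 2). With a replicate block 799 genes were called, 4 of the nuclear lists and 6 mitochondrial genes lower (mt-Atp8 beside the 5), with joint mt-Co2 at -0.44, and the numbers were not treated as pairs, since same-numbered libraries deviated together with correlations of 0.001, -0.095 and 0.228.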
